A study of Homo sapiens with 6 samples.

Results

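The 10 glycolytic enzyme genes described here are HK2, GPI, PFKP, ALDOA, TPI1, GAPDH, PGK1, ENO1, PKM and LDHA. They were chosen by symbol, as 1 gene for nearly every step from glucose to lactate, and each of the 10 was found once among the 20522 rows of every library and in the group table. The samples were mRNA-seq libraries of K1, an established human cell line from a papillary thyroid carcinoma. Of the 6 libraries, 3 came from cells transfected with a negative control siRNA (NC) and 3 from cells transfected with si-NEAT1_2, an siRNA against the long isoform of the lncRNA NEAT1. All 6 came from the same cell line, and the groups differ by label in the transfected siRNA. The library names also differ in a number after the letter L, which is described below. Whether the 3 libraries of a group came from separate cultures is not stated in the sources used here, so p-values measure only the spread between these libraries, which may be technical. NEAT1 was not analysed here, and the groups are taken from the labels alone. The authors also deposited a table with 1 expected count and 1 FPKM value per group, called the group table below, which carries no replicates.

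Glycolysis converts glucose to pyruvate in the cytosol and yields ATP and NADH, and lactate dehydrogenase then reduces pyruvate to lactate and restores NAD+. Many tumours, thyroid carcinomas included, take up glucose and release lactate even when oxygen is present. Several of these genes are textbook targets of the hypoxia-inducible factors and of MYC, and GAPDH is at the same time a common reference gene. GAPDH and TGM2 are among the genes for which the study lists qRT-PCR primers, and which gene TGM2 was expressed relative to is not stated in the sources used here.

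The total count per library was between 22798631 and 27066025. The thyroid transcription factor gene PAX8 had an FPKM between 113 and 169, but 3 of 7 thyroid follicular markers (TSHR, SLC5A5 and NKX2-1) were under 0.1 in every library. The epithelial keratins KRT7, KRT8 and KRT18 were abundant, and KRT19 and CDH1 stayed under 1 FPKM. Of 8 markers of other cell types, 2 reached an FPKM of 1 in any library, the macrophage marker CD68 (11.6 to 19.6) and COL1A1 (0.78 to 2.25), and PTPRC, CD3E, PECAM1 and CDH5 did not exceed 0.12. In bulk libraries, fewer cells of a kind and less RNA per cell cannot be told apart.

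The sequences before the annotated start sites were searched for ACGTG, the core of the element that hypoxia-inducible factors bind, and for CACGTG, an E-box that MYC can bind, which contains ACGTG on both strands. In the 250 bases before each RefSeq start site (GRCh38.p14), ACGTG was found on either strand for 8 of the 10 genes, the exceptions being ENO1 and PKM, against 21.7% of all genes with a match in any of their windows. Of the 18 windows of the members 11 held it and 4 held CACGTG, against 18.5% and 6.34% of all 35116 such windows. The members' windows had a GC content between 53.2% and 81.6%. The background was not matched to them in GC content or in windows per gene, and the excess was not tested. The stretches of 3 genes are shown because GAPDH is a common reference gene and PGK1 and LDHA are the members of lowest GC content. Each is 30 bases of the plus strand, with the matches in capitals, and a match is a property of the letters and measures no binding.
GAPDH, chr12:6535171-6535200: gctctgcggggtCACGTGtcgcagaggagc
PGK1, chrX:78104043-78104072: cggACGTGacaaacggaagccgCACGTctc
LDHA, chr11:18394366-18394395: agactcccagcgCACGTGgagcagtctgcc
LDHA, chr11:18394470-18394499: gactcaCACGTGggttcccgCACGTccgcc
The GAPDH stretch held 1 CACGTG, which counts as 2 matches. The PGK1 stretch held 2 matches on opposite strands outside any E-box. The LDHA window held 5 matches in 2 stretches, more than the other members' windows, and 1.55% of all windows held at least 3.

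GAPDH was the most abundant member, with a mean of 5380.5 FPKM over the 6 libraries and rank 7 of all 20522 rows. FPKM is scaled for gene length and library size but not for GC content, so levels of different genes can be set side by side only roughly. ENO1 followed with 2432 FPKM, PKM with 1873 and LDHA with 1640.5, and the ranges of neighbours among these 3 overlapped. Within each library ENO1 was above PKM, while PKM was just below LDHA in NC replicate 2. TPI1 had 943 and ALDOA 669 FPKM, again with overlapping ranges, ahead of PGK1 with 215. The ranges of PFKP (147) and GPI (140) overlapped as well. Within each library, however, TPI1 was above ALDOA and PFKP above GPI. HK2 was by far the lowest with 6.84 FPKM. The order differed in the group table, where LDHA (702 FPKM) was below TPI1 (1314) and ALDOA (1546) in the NC column. The 10 genes together took between 1.86% and 2.56% of all counts of a library, and GAPDH alone between 0.585% and 0.854%.

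**Figure D1:**
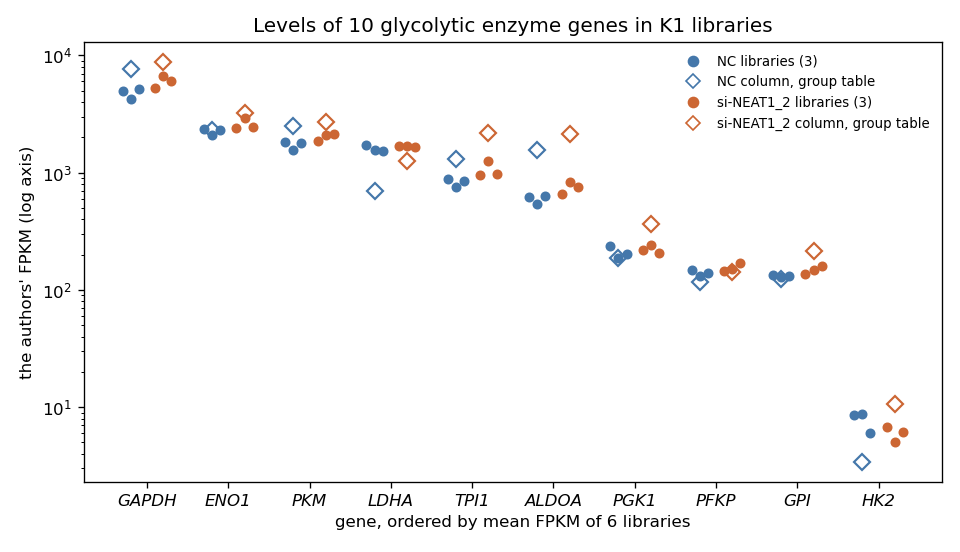
The authors' FPKM (log axis) of the 10 enzyme genes, ordered by their mean over 6 libraries. Filled points are the 3 NC and the 3 si-NEAT1_2 libraries and open diamonds are the columns of the group table, which has no replicates. GAPDH stands at the top and HK2 at the bottom, and for 8 of 10 genes the diamond of the si-NEAT1_2 column lies above the points of all 3 si-NEAT1_2 libraries.

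The members lie on 9 chromosomes, since GAPDH (6533927 to 6538374) and TPI1 (6867119 to 6870948) are near each other on chromosome 12 of GRCh38. PGK1 lies on chromosome X from 77910739 to 78129296, LDHA on chromosome 11 from 18394388 to 18408425 and ALDOA on chromosome 16 from 30064164 to 30070457, as GENCODE release 29 annotates the genes, introns included. ALDOA overlaps another gene of the files on the same strand, and its expected counts were not whole in any of the 6 libraries, so its level depends on how shared reads were divided. GAPDH has 62 annotated pseudogenes that bear its name, more than any other member, and its counts were whole in all 6 libraries.

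The share of each enzyme family held by its members was measured with the other isozymes, which are named here as family members. HK2 made up 6.48% ± 1.23 of the summed hexokinase FPKM in the NC libraries and 5.02% ± 0.501 in the si-NEAT1_2 libraries (SD, n = 3 each). HK1, the hexokinase of most tissues, made up 58.2% and 58.9%, and HKDC1 35.3% and 36.0%, so that HK2 was the smallest of these 3 in the libraries of either group. The group table differed. Its NC column had 63.4 FPKM for HK1, 3.4 for HK2 and 8.51 for HKDC1. Its si-NEAT1_2 column had 105, 10.7 and 1.32 in the same order. PFKP, the platelet type of phosphofructokinase, made up 66.3% ± 1.07 and 69.4% ± 1.74. LDHA made up 65.0% ± 0.237 and 63.6% ± 3.66, with the rest almost wholly LDHB. ALDOA and ENO1 held at least 97.1% of their families in every library, and PKM was nearly the whole of pyruvate kinase.

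The first enzyme gene of the pathway, HK2, which codes for the hexokinase that phosphorylates glucose, was measured at 8.5, 8.68 and 6.01 FPKM in NC replicates 1 to 3, against 6.71, 5.04 and 6.12 FPKM in si-NEAT1_2 replicates 1 to 3. The groups overlapped, since NC replicate 3 lay below si-NEAT1_2 replicates 1 and 3. GPI, which codes for the isomerase of the second step, had 135, 128 and 133 FPKM in the NC libraries and 138, 149 and 159 in the si-NEAT1_2 libraries. All 3 si-NEAT1_2 values of GPI were above all 3 NC values. PFKP, a subunit of the enzyme that commits the sugar to glycolysis, had 148, 130 and 138 FPKM against 145, 151 and 168. Its groups overlapped by 1 library on either side.

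ALDOA, the aldolase that splits the sugar in the lower pathway's first step, had 616, 536 and 627 FPKM in the NC libraries against 656, 829 and 751. TPI1, which interconverts the resulting triose phosphates, had 876, 749 and 841 against 957, 1252 and 983. In both genes NC replicate 2 was the lowest and si-NEAT1_2 replicate 2 the highest library, and the groups did not overlap. GAPDH, which oxidises glyceraldehyde phosphate, had 4949, 4272 and 5149 FPKM against 5243, 6614 and 6056. Its groups did not overlap either, with si-NEAT1_2 replicate 1 only just above NC replicate 3.

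PGK1, the first ATP-forming enzyme of the pathway, had 237, 186 and 201 FPKM in the NC libraries against 218, 242 and 205. Its groups overlapped widely. ENO1, which forms phosphoenolpyruvate, had 2353, 2102 and 2297 against 2422, 2947 and 2474, without overlap. PKM, the pyruvate kinase gene, had 1829, 1558 and 1785 against 1849, 2090.2 and 2126. The PKM groups also did not overlap, though NC replicate 1 and si-NEAT1_2 replicate 1 lay close together. LDHA, whose product makes lactate, had 1729, 1565 and 1529 FPKM against 1683, 1688 and 1649.6. NC replicate 1 was the highest library for LDHA, so the groups overlapped.

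To determine whether the enzymes moved together between the groups, the counts were tested in a fit over all 13109 genes that passed the filter on low counts, a filter that all 10 members passed. Fold changes are of si-NEAT1_2 over NC, from edgeR's quasi-likelihood test on TMM-scaled counts. The log2 fold change was above 0 for 9 of 10 members, against 50.9% of all genes. The largest values were 0.44 ± 0.16 (SE) for TPI1 and 0.41 ± 0.16 for ALDOA, which correspond to 36.0% and 32.9% higher counts. GAPDH followed with 0.34 ± 0.16, then PKM with 0.30 ± 0.15, ENO1 with 0.29 ± 0.16, GPI with 0.27 ± 0.13, PFKP with 0.22 ± 0.13, PGK1 with 0.15 ± 0.14 and LDHA with 0.13 ± 0.14. HK2 had the only value below 0, at -0.32 ± 0.16. The median of the 10 was 0.28, beside 0.01 for all genes tested.

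None of these differences passed the adjustment over all genes. The adjusted p of edgeR's test with Benjamini-Hochberg adjustment was between 0.173 (TPI1) and 0.550 (LDHA). Across all genes 0.0% passed an adjusted p under 0.05 together with a fold change of at least 2, so the members' count of 0 equals the background. At an unadjusted p under 0.05, ALDOA (0.0228) and TPI1 (0.0208) were higher in si-NEAT1_2, which is 2 of 10, and 11.2% of all genes were, while 0 of 10 were lower, beside 12.9% of all genes. The groups did not overlap, with si-NEAT1_2 higher, for 6 of 10 members (GPI, ALDOA, TPI1, GAPDH, ENO1 and PKM), and for 15.4% of all genes.

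The library values showed which libraries carried this pattern. As log2 CPM (counts scaled to library size) against each gene's own mean over the 6 libraries, the median of the 10 genes was -0.24 in NC replicate 2 and 0.26 in si-NEAT1_2 replicate 2. In si-NEAT1_2 replicate 1 it was -0.03, and no member there was more than 0.05 from its own mean. In si-NEAT1_2 replicate 3 the median was 0.13, with 7 of 10 members above their mean. In NC replicate 3 the median was -0.11, with 0 of 10 members above their mean. HK2 ran against most of the others in some libraries, at 0.32 in NC replicates 1 and 2 and at -0.30 in si-NEAT1_2 replicate 2. In NC replicate 3, however, it was low with the others, at -0.19. Over the 6 libraries all 36 pairs among the 9 genes without HK2 had a positive Pearson correlation, with a median of 0.91. These points share their libraries and the scaling of each library, and the correlations are a description only.

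The libraries also differed in how counts depended on GC content. Across genes, the Spearman correlation between a gene's deviation in a library and the GC content of its transcript was -0.26, -0.66 and -0.35 in the NC libraries, in the order of their replicate numbers, against -0.15, 0.52 and 0.62 in the si-NEAT1_2 libraries. With transcript length it was 0.28, 0.49 and 0.35 in the NC libraries and 0.13, -0.64 and -0.11 in the si-NEAT1_2 libraries. The libraries with the lowest and the highest median of the enzymes, NC replicate 2 and si-NEAT1_2 replicate 2, were thus at or near the ends of both trends. Among all genes, the median log2 fold change was -0.30 for the 4531 genes with a GC content under 45% and 0.22 for the 1944 genes between 55% and 60%. The enzyme transcripts are mostly rich in GC: 8 of 10 lay between 51.2% (HK2) and 60.1% (ALDOA), against a median of 49.8% over all annotated genes of the files. PGK1 (43.3%) and LDHA (44.0%) were the exceptions.

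**Figure D2:**
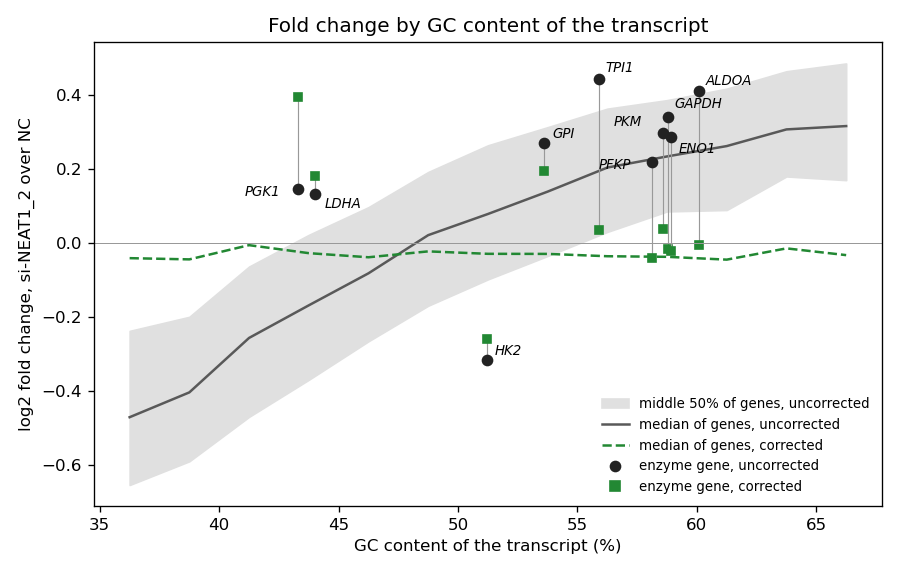
Log2 fold change of si-NEAT1_2 over NC against the GC content of the transcript (%). The grey line and band are the median and the middle 50% of all genes in bins of GC content, the dashed green line is their median after the correction for GC content and length, and each enzyme gene is joined from its uncorrected value (black circle) to its corrected value (green square). The grey line climbs from -0.47 in the bin centred at 36.25% GC to 0.32 in the bin centred at 66.25%. Most GC-rich enzymes lie near it before the correction and near 0 after it, while PGK1 and LDHA lie above it.

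With the trends of GC content and transcript length removed within each library, the shared difference was no longer seen. The median log2 fold change of the 10 genes was 0.02, beside -0.03 for all genes, and 5 of 10 were above 0, against 44.1% of all genes. Corrected values were -0.02 ± 0.06 (SE) for GAPDH, -0.01 ± 0.06 for ALDOA, 0.04 ± 0.06 for TPI1, -0.02 ± 0.07 for ENO1, 0.04 ± 0.06 for PKM and -0.04 ± 0.07 for PFKP. The signs of GAPDH, ALDOA, ENO1 and PFKP turned with the correction. HK2 remained below 0 at -0.26 ± 0.13, with an unadjusted p of 0.0755 in edgeR's quasi-likelihood test. No member passed the adjusted test, which 0.0305% of all genes passed together with a fold change of at least 2.

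GPI, PGK1 and LDHA were higher in the corrected fit. Their corrected log2 fold changes were 0.20 ± 0.08, 0.40 ± 0.15 and 0.18 ± 0.07 (SE), with unadjusted p of 0.0302, 0.0249 and 0.0274 from edgeR's quasi-likelihood test and adjusted p between 0.254 and 0.268. These are 3 of 10 members at an unadjusted p under 0.05, against 6.59% of all genes, and 0 of 10 were lower, against 9.44%. The corrected groups did not overlap for GPI and LDHA, 2 of 10, against 9.14% of all genes. PGK1 rested most on 2 libraries: its corrected deviation was -0.46 in NC replicate 2 and 0.52 in si-NEAT1_2 replicate 2, and without the latter its value was 0.21.

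The values of GPI and LDHA depended on the transcript that stands for the gene, and that of PGK1 less so. The correction took the longest principal transcript in GENCODE release 29, which has 4194 bases for GPI, 4887 for PGK1 and 2416 for LDHA. The deposited counts and FPKM values give shorter lengths, of 2328, 2939 and 1592 bases. With those lengths and the GC content of the annotated transcript nearest to them, the log2 fold change was 0.03 for GPI and 0.03 for LDHA. PGK1 kept a value of 0.31 ± 0.12 (SE), with an unadjusted p of 0.0237 and an adjusted p of 0.253 in edgeR's test, and its libraries still overlapped. GAPDH was at -0.03 and the median of the 10 genes at 0.02 in that fit.

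The correlations changed in the same way. After the correction, 18 of all 45 pairs of members were positive over the 6 libraries, with a median of -0.24, where 36 had been positive with a median of 0.85 before. With the lengths from the files, 23 of 45 were positive. The corrected deviations of GAPDH from its own mean stayed between -0.05 and 0.03 in all 6 libraries, and those of HK2 still spanned -0.21 to 0.32. With the lengths from the files, those of GAPDH spanned -0.10 to 0.05 and those of HK2 -0.23 to 0.24. A correction of this kind takes out whatever follows GC content and length in a library, and whether that part arose in the cells or in the preparation of the libraries was not tested.

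**Figure D3:**
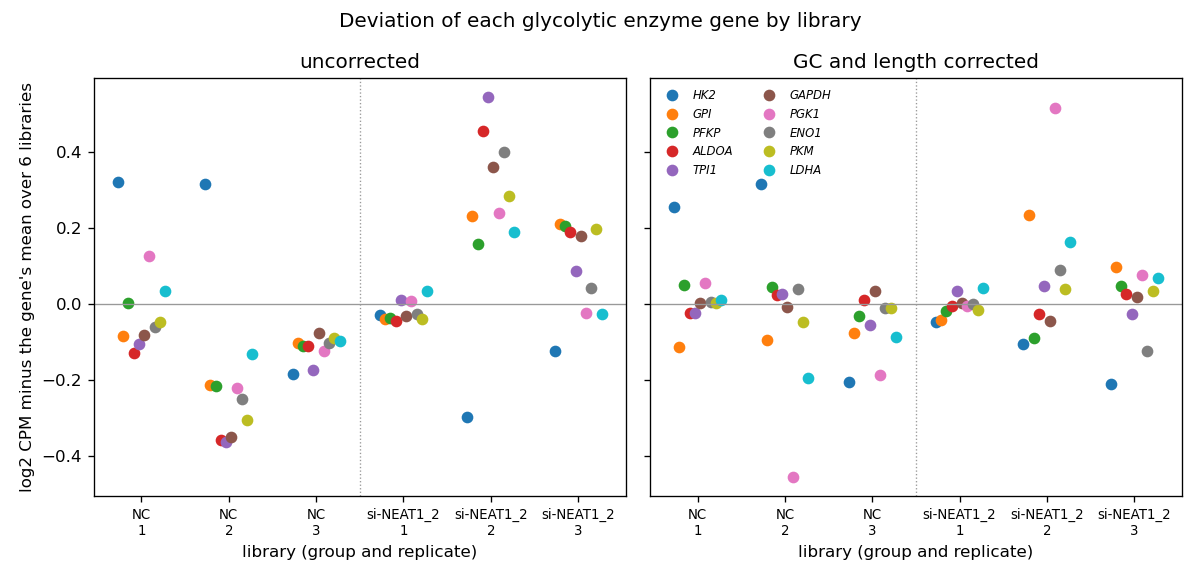
Log2 CPM of each enzyme gene minus its own mean over 6 libraries, per library, before (left) and after (right) the correction for GC content and length; colours mark the genes. Before the correction, all members but HK2 are low in NC replicate 2 and high in si-NEAT1_2 replicate 2, and in si-NEAT1_2 replicate 1 all 10 lie within 0.05 of 0. After it, PGK1 and HK2 hold the widest deviations.

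The library names carry a number after the letter L, which was 3, 2 and 2 in the NC libraries and 4, 2 and 3 in the si-NEAT1_2 libraries. Among libraries of number 2, 9 of 10 members were higher in the si-NEAT1_2 library than in the mean of 2 NC libraries, with a median log2 difference of 0.45, or 0.06 after the correction, when 6 of 10 were higher. Of all tested genes 50.1% were higher in that comparison, or 43.0% corrected. Between the 2 libraries of number 3, 7 of 10 were higher in si-NEAT1_2, with a median of 0.20, or 0.02 after the correction, again with 6 of 10 higher. There 49.7% of all tested genes were higher, or 47.6% corrected. With this number as a factor in the fit, in which si-NEAT1_2 replicate 1 carries no weight, the median was 0.36 without the correction.

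In the group table all 10 members were higher in the si-NEAT1_2 column, among them HK2, which was lower in the libraries. Of the 11361 genes with an FPKM of at least 1 in either column, 35.2% were higher in that column and 3.55% at least 2-fold. HK2 went from 3.4 to 10.7 FPKM, a ratio of 3.14, and was the only member past 2-fold. PGK1 went from 188 to 364 FPKM, LDHA from 702 to 1263 and GPI from 123 to 213, ratios of 1.93, 1.80 and 1.74. GAPDH differed less, from 7651 to 8720.5 FPKM, a ratio of 1.14, and PKM least, with a ratio of 1.09. The median log2 ratio of the 10 genes was 0.62, beside -0.23 for all of these genes.

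The group columns were not within the range of the libraries that carry the same label. In the NC column 4 members (ALDOA, TPI1, GAPDH and PKM) were above all 3 NC libraries, 4 (HK2, GPI, PFKP and LDHA) were below them, and PGK1 and ENO1 lay within. In the si-NEAT1_2 column 8 members were above all 3 si-NEAT1_2 libraries, and PFKP and LDHA were below. ALDOA, for example, had 1546 and 2142 FPKM in the group table, and none of the 6 libraries exceeded 829. The order of the members by ratio also differed: HK2, PGK1 and LDHA led in the group table, where TPI1, ALDOA and GAPDH led in the uncorrected libraries.

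**Figure D4:**
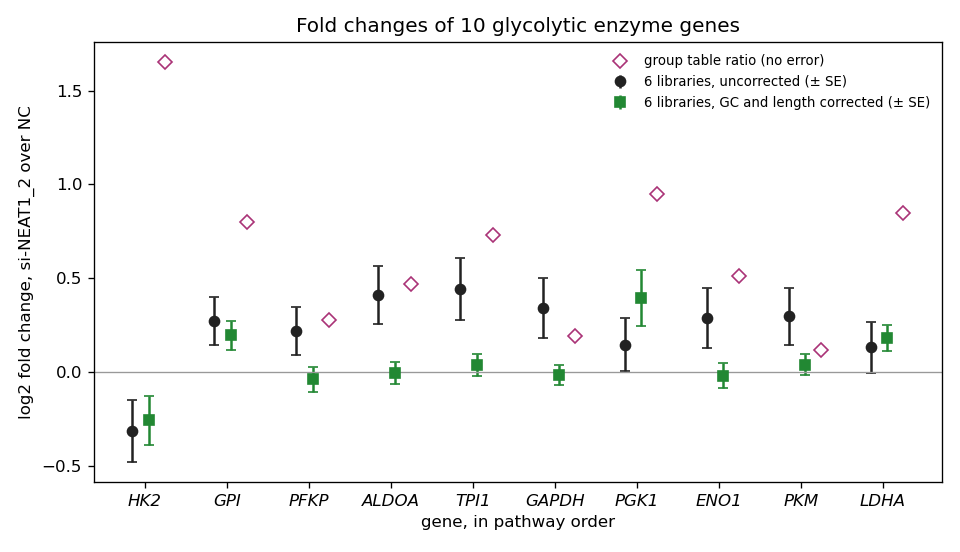
Log2 fold change of si-NEAT1_2 over NC for each enzyme gene in pathway order. Black circles are the fit of 6 libraries and green squares the GC and length corrected fit, both with SE; open diamonds are ratios of the group table, which have no error. The circles lie above 0 for 9 of 10 genes, the squares scatter about 0 apart from HK2, GPI, PGK1 and LDHA, and all diamonds lie above 0.

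Since GAPDH is a common reference gene, the ratio of TGM2 to it was formed from the libraries. The TMM-scaled counts of TGM2, a transglutaminase gene, were 378, 377 and 386 CPM in the NC libraries against 359, 334 and 425 CPM in the si-NEAT1_2 libraries, and its own log2 fold change was -0.03 ± 0.13 (SE). The log2 ratio of TGM2 to GAPDH was -4.17, -3.91 and -4.15 in the NC libraries and -4.30, -4.79 and -4.27 in the si-NEAT1_2 libraries. All 3 si-NEAT1_2 ratios were below all 3 NC ratios. The mean ratio was lower by 22.9% in si-NEAT1_2, a log2 difference of -0.38, and the two-sided exact permutation test gave p = 0.10, the smallest that 3 against 3 libraries allow. Without si-NEAT1_2 replicate 2 the difference was -0.20. With the authors' FPKM it was -0.50, with overlapping groups (exact permutation p = 0.3). The GC and length corrected difference was -0.07, with overlapping groups (exact permutation p = 0.3). In the group table the same difference was -1.77.

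The difference in the ratio varied with the reference gene. TGM2 was set against 16 other reference genes in the same way. The ratio was lower in si-NEAT1_2 for 13 of all 17 references, with log2 differences from -0.59 (RPL13A, a ribosomal protein gene) to 0.45 (IPO8, an importin gene). The groups were apart with si-NEAT1_2 lower for GAPDH and RPL13A, and apart with si-NEAT1_2 higher for IPO8. The exact permutation p was 0.1 for each of these, the smallest possible. The share of all genes whose ratios would be apart in this way was not counted. With ACTB, a common alternative to GAPDH, the difference was -0.14 with overlapping groups (exact permutation p = 0.8). GAPDH itself varied with an SD of 0.24 in log2 CPM over the 6 libraries, and 6 of the 16 other references varied more. After the correction the SD of GAPDH was 0.03, and all 16 others varied more. This holds for the longest principal transcripts. With the lengths from the files, the deviations of GAPDH from its own mean were wider, from -0.10 to 0.05. The other references were not compared with GAPDH in that fit.

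**Figure D5:**
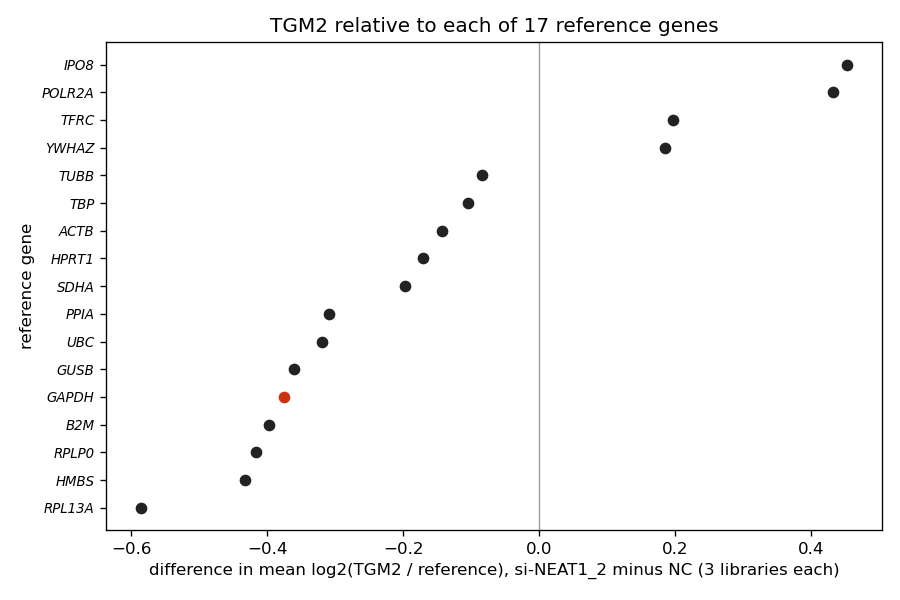
Difference between the groups in the mean log2 ratio of TGM2 to each of 17 reference genes (3 si-NEAT1_2 minus 3 NC libraries, TMM-scaled counts); GAPDH is in red. Points left of 0 mean a lower TGM2 ratio in si-NEAT1_2. The points run from -0.59 with RPL13A to 0.45 with IPO8, and GAPDH lies at -0.38.

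Relative to GAPDH, no other member was shown to differ between the groups in the uncorrected counts. The log2 difference in the ratio to GAPDH was between -0.64 (HK2) and 0.09 (TPI1), the groups overlapped for all 9 ratios, and the exact permutation p, which cannot fall below 0.10, was between 0.2 and 0.5 (adjusted over the 9 ratios, 0.45 to 0.50). HK2 was 35.8% lower relative to GAPDH, LDHA 13.4% and PGK1 12.3%. ALDOA and TPI1 were 4.37% and 6.40% higher. The log2 ratio to GAPDH had an SD of 0.02 in the NC and 0.06 in the si-NEAT1_2 libraries for ALDOA, and of 0.03 and 0.05 for PKM. In the corrected counts the differences relative to GAPDH were 0.21 for GPI and 0.20 for LDHA, where all 3 si-NEAT1_2 ratios were above all 3 NC ratios (exact permutation p = 0.1 each, the smallest possible). Of all genes, 9.14% had corrected values, not ratios, that were apart with si-NEAT1_2 higher. The corrected differences relative to GAPDH were 0.41 for PGK1, 0.05 for PKM and -0.23 for HK2, with overlapping groups. The values of GPI and LDHA again depended on the transcript chosen. With the lengths from the files, the log2 fold changes were 0.03 for GPI, 0.03 for LDHA and -0.03 for GAPDH. The libraries of GPI and of LDHA overlapped between the groups in that fit, and their ratios to GAPDH were not tested there.

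The remaining glycolytic enzymes and isozymes were described next. Of 19, 11 passed the filter on low counts and 0 passed the adjusted test. Before the correction 0 of the 11 had an unadjusted p under 0.05 in edgeR's quasi-likelihood test. Of all genes, 11.2% were higher and 12.9% lower at that threshold. The median log2 fold change of the 11 was 0.09, or -0.06 corrected. PGAM1, the mutase of the step between PGK1 and ENO1, had 602 ± 52.2 FPKM in NC and 659 ± 47.1 in si-NEAT1_2 (SD, n = 3 each). Its log2 fold change was 0.20 ± 0.14 (SE), or -0.06 corrected. LDHB, the other lactate dehydrogenase subunit, was at 0.23 ± 0.17, or 0.07 corrected. BPGM, which makes 2,3-bisphosphoglycerate, was at 0.31 ± 0.18, or 0.32 corrected. PFKL, the liver type of phosphofructokinase, is named after its values were seen. It had 41.7, 33.7 and 40.2 FPKM in the NC libraries against 33.5, 38.6 and 35.7, and a log2 fold change of -0.03 ± 0.14 (SE). Its corrected value was -0.32 ± 0.08, with an unadjusted p of 0.00171 and an adjusted p of 0.152 in edgeR's quasi-likelihood test, and all 3 corrected si-NEAT1_2 values were below all 3 NC values. It was thus 1 lower gene of 11 at an unadjusted p under 0.05 in the corrected fit, against 9.44% of all genes. At that threshold 0 of the 11 were higher, against 6.59% of all genes.

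Among 7 tested genes of glucose and lactate transport, 1 was higher and 1 lower at an unadjusted p under 0.05, beside 11.2% and 12.9% of all genes. SLC16A7, a monocarboxylate transporter, had a log2 fold change of -1.01 ± 0.31 (SE) and an adjusted p of 0.170 in edgeR's test, with a corrected value of -0.33. BSG, the chaperone of such transporters, was at 0.39 ± 0.14 and 0.01 corrected, and SLC16A3, which exports lactate, at 0.18 ± 0.13 and 0.02 corrected.

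The regulators of flux showed 2 higher and 1 lower gene of 10 at an unadjusted p under 0.05, where 11.2% of all genes were higher and 12.9% lower. PFKFB4, which sets the level of the activator of phosphofructokinase, had 6.34 ± 0.556 FPKM in NC and 9.21 ± 2.14 in si-NEAT1_2 (SD, n = 3 each), a log2 fold change of 0.63 ± 0.16 (SE) with an adjusted p of 0.170 in edgeR's test, and kept 0.46 ± 0.14 after the correction (adjusted p = 0.217). PDK1, a kinase that holds pyruvate dehydrogenase inactive, was at -0.64 ± 0.15 and at -0.08 corrected. PFKFB3, an isozyme of PFKFB4, was at -0.06 and TIGAR, which opposes phosphofructokinase, at -0.26, with corrected values of -0.16 and -0.06. Of the 8 genes for pyruvate entry into mitochondria, DLD had a value of -0.36 ± 0.14 (-0.05 corrected), MPC1 0.24 ± 0.17 (0.12 corrected), PDHA1 0.14 (0.19 corrected) and CS 0.005 (-0.05 corrected).

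The pentose phosphate pathway, which branches off after the hexokinase step, had the highest median of these lists, 0.33 over 7 genes, with 5 higher and 1 lower at an unadjusted p under 0.05. The background was 11.2% higher and 12.9% lower genes. Its corrected median was 0.07, with 1 higher gene against 6.59% of all genes. PGLS, which opens the lactone ring of the pathway's first product, was at 0.53 ± 0.18 (SE) and -0.01 corrected. TKT and TALDO1 were at 0.33 and 0.36, or 0.10 and -0.04 corrected. The 3 tested genes of gluconeogenesis, PC, G6PC3 and PCK2, were at 0.41, 0.24 and 0.18, or 0.22, -0.18 and -0.12 corrected.

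The transcription factors that drive these enzymes in other settings were measured as well. HIF1A, the oxygen-regulated subunit, had 49.8 ± 8.71 FPKM in NC and 32.8 ± 7.16 in si-NEAT1_2 (SD, n = 3 each), with a log2 fold change of -0.55 ± 0.16 (SE), or -0.22 ± 0.09 corrected. EPAS1 was at -0.37 ± 0.16, and at -0.38 ± 0.10 corrected, and MYC at 0.20, and -0.22 corrected. Their adjusted p was at least 0.169 in edgeR's test, with and without the correction. Of 16 tested targets of hypoxia-inducible factors outside glycolysis, 1 was higher and 2 lower at an unadjusted p under 0.05 (11.2% and 12.9% of all genes), and the median was -0.02, or 0.01 corrected. NDRG1 was at 0.36 and PLOD2 at -0.50, or 0.18 and -0.14 corrected, and BNIP3 at 0.19, or 0.25 corrected. The other reference genes had a median of 0.15 over 16, with 5 higher and 1 lower at an unadjusted p under 0.05 against the same background, and 0.05 corrected. Of these, RPL13A was at 0.58, RPLP0 at 0.39, ACTB at 0.11 and IPO8 at -0.49, or 0.19, 0.01, -0.20 and -0.16 corrected.

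The pattern of the 10 enzymes over the libraries was shared widely. Of 5584 other well-expressed genes (mean log2 CPM of 5 or more), 21.6% had a correlation above 0.9 with the mean deviation of the members over the 6 libraries, and 14.4% one below -0.9. Among the most alike were PINK1, ATG4B, GTF3C5 and FZR1, with correlations from 0.9956 to 0.9983 and a GC content between 58.6% and 64.0%. The least alike were STX16, NIPBL and FIGN, with correlations from -0.9991 to -0.9975, a GC content between 39.0% and 47.1% and transcripts of at least 4937 bases. These are descriptions over 6 libraries that share their scaling. After the correction, 2.94% of these genes had a correlation above 0.9 with the members' mean.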

How the data were processed

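mRNA-seq of K1 cells was analysed in 3 NC and 3 si-NEAT1_2 libraries, grouped by their labels. The members and lists were chosen with earlier results of these data known. According to the methods of the study, reads were mapped with TopHat2 and quantified with RSEM; the submitters' processing notes name fastp 0.18.0, Bowtie2 2.2.8, HISAT2, StringTie 1.3.1 and the build GRCh38, and the annotation is not given in the sources used here. The deposited expected counts are estimates per gene and library, not normalized, and the deposited FPKM values are scaled by the authors for gene length and library size. The authors' group table holds 1 expected count and 1 FPKM value per group, with sums of 17678761 and 19579897 counts, and how its columns were made from libraries is not stated. Expected counts were rounded and filtered with filterByExpr, which kept 13109 genes. TMM scaling and the quasi-likelihood test were run in edgeR 4.0.16 (R 4.3.3). Calls needed a 2-fold change or more and a Benjamini-Hochberg adjusted p under 0.05. The alternatives used limma 3.58.1 on log2(FPKM + 1) and log2(FPKM + 0.1), DESeq2 1.42.0, other scalings and filters, the library number, a replicate block and the omission of each library. For the correction, log2 CPM deviations were fitted per library with natural splines (5 degrees of freedom each) of GC content and log2 length, and the fit entered as offsets; 12581 genes had an annotated transcript in GENCODE release 29 and the others stayed uncorrected. GC content alone, length alone and lengths taken from the files were added after the data were seen. For ratios, exact permutation tests (two-sided) were run in scipy. The tests were checked on simulated data that held no trends of GC content or length, so the check does not cover such trends. Unmapped columns of per-sample values numbered 0.

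Besides the members, PGAM1 and TGM2, the genes named from each list were the 2 tested genes with the smallest unadjusted p and, for enzymes, transporters and reference genes, the 2 of highest mean FPKM; from the pattern of the members, the 5 most and 3 least alike genes. Of the genes this rule names, 2 are not reported here. Other isozymes, markers and reference genes were named after their values were seen. The methods describe the RNA as coming from 3 pairs of NC or si-NEAT1_2 cells and do not state what a pair shares. Same-numbered libraries did not deviate together from their group means (correlations of -0.26, -0.34 and -0.01), and the replicate number was not taken as a pairing in the main fit. These correlations were taken without the GC and length correction and cannot exclude a pairing. The lowest count of any member was 749 (HK2), with a counting error of 3.65%, and that of the other members was at most 1.23%; these cover counting error only.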

Additional observations from a re-analysis of the deposited data

How the results depend on the processing

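At the thresholds used, 0 genes were higher and 0 lower in si-NEAT1_2 in edgeR's test, where 3165 genes had an unadjusted p under 0.05. With DESeq2 there were 19 and 45, with no filter 9 and 9, after the GC and length correction 1 and 3, with length alone 1 and 3, with GC content alone 0 and 1, with lengths from the files 0 and 3, with no normalization factors 0 and 1, and with limma on log2(FPKM + 0.1) 0 and 1. Leaving out each library gave 0 to 32 higher and 0 to 184 lower genes, the most without si-NEAT1_2 replicate 1. The median log2 fold change of the 10 enzymes, 0.28, was 0.02 with the correction (0.0151, also with the replicate block added, and 0.0186 with lengths from the files), 0.0944 with GC content alone, 0.15 with length alone and 0.62 in the group table. It was 0.20 to 0.35 when each library was left out and -0.01 to 0.03 when this was done with the correction.

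No member had an adjusted p under 0.05 in any of the 19 alternatives, and the lowest, 0.0603 for ALDOA in edgeR's test, came without si-NEAT1_2 replicate 1. The signs that turned were those of PFKP (-0.0395 with the correction, -0.0401 with the replicate block added to it, -0.0325 with GC content alone, -0.0142 with lengths from the files), ALDOA (-0.0059 with the correction and with the block added, -0.0181 with lengths from the files), GAPDH (-0.0169, -0.017 and -0.0338 in the same order), ENO1 (-0.0197 with the correction and -0.0221 with the block added) and HK2 (1.65 in the group table). The corrected value of ENO1 was -0.0811 to 0.0335 when each library was left out, and turned without si-NEAT1_2 replicate 3. Relative to GAPDH, the group table turned the sign of HK2 (1.46), GPI (0.61), PFKP (0.086), PGK1 (0.76), ENO1 (0.32) and LDHA (0.66). With the GC and length correction, added after the data were seen for these ratios, the signs of GPI (0.208), PGK1 (0.409), PKM (0.054) and LDHA (0.199) turned. The cause of these turns was not tested. The replicate block without the correction left the median at 0.27 and changed no call of a member. With 3 libraries a group, the smallest exact p is 0.10, and the group table has no replicates.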
